A study of Mus musculus with 4 samples.

Results

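Blood endothelium, the cell layer that lines arteries, capillaries and veins, was examined in the oviduct and the uterus of newborn mice. Its cells were picked by 7 marker genes. A barcode counted as endothelial when at least 4 of Cdh5, Pecam1, Cldn5, Egfl7, Emcn, Cd93 and Flt1 had a UMI (unique molecular identifier, 1 per captured RNA molecule). These 7 genes also had to make up at least 0.1% of its UMIs, and the epithelial gene Epcam and the mesothelial gene Upk3b had to be at 0. Barcodes under 500 detected genes or over 15% mitochondrial UMIs were left out, and the rule gave 606 cells of 26619 called barcodes. Oviduct libraries 1 and 2 held 154 and 131 of them, uterine libraries 1 and 2 held 156 and 165. All libraries came from untreated wild-type CD1 mice at postnatal day 3. The tissue was digested with Collagenase B, Dispase II and DNase I, and libraries were made as 10x Genomics Chromium 3′ libraries. Neonates were pooled (3 or 4 per library), with oviduct and uterus from the same animals according to the labels, so p-values measure the spread between pools. The labels give mesenchymal and epithelial cells as the cell type, and the endothelial cells were part of the same suspensions.

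Endothelial cells carry blood through the organ, hold their junctions with VE-cadherin (Cdh5), and read VEGF through Flt1 and Kdr. They differ along the vessel: arterial cells use Notch signalling and gap junction proteins such as Gja4 and Gja5, venous cells carry the transcription factor Nr2f2, and capillary cells exchange lipids and solutes with the tissue. In newborn organs the vessel bed is still growing, and tip cells at its front express genes such as Esm1, Apln and Dll4.

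The endothelial cells held 3386050 to 5429105 UMIs per library, with library medians of 15646 to 19534 UMIs per cell. The deepest cell held 244391 UMIs, and the deepest 10% of the cells gave 32.1% to 40.6% of a library's endothelial UMIs. All 7 markers were detected in 462 of the 606 cells. At the edge of the rule, 34 cells had exactly 4 of the markers, and 49 further barcodes met every other criterion with exactly 3. The markers that chose the cells were high by construction: Cdh5, for example, had 844, 962, 785 and 742 CPM (counts per 1000000 endothelial UMIs of the library) in oviduct 1, oviduct 2, uterus 1 and uterus 2, the order used for every group of 4 values here. Between any 2 libraries 8 to 15 barcodes were shared, 74 in all, and 2 of these involved an endothelial cell. Lymphatic endothelium shares most of the markers. Only 1 cell, in uterus 1, had at least 4 of the lymphatic genes Prox1, Lyve1, Flt4, Mmrn1, Reln and Ccl21a. A single cell there held all 141 UMIs of Ccl21a, and the other 3 libraries had 0. At least 2 of these lymphatic genes were detected in 23, 17, 11 and 13 cells. Prox1 was detected in 13.0%, 13.0%, 4.49% and 7.27% of the cells, more often in both oviduct libraries. Calls lost without the cells with 2 lymphatic genes are named below.

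Traces of other cell types differed between the organs. Of the endothelial cells, 24.7%, 17.6%, 11.5% and 13.3% had UMIs of at least 3 genes of the pericyte, smooth muscle, stroma or myeloid marker list. The 8 pericyte genes summed to 137, 28.1, 11.5 and 22.3 CPM, the 8 smooth muscle genes to 281, 222, 146 and 76.1, and the 8 stroma genes to 354, 304, 244 and 178. Both oviduct libraries were thus above both uterine ones in all 3 sums. Rgs5, a pericyte regulator of G protein signalling, had 50.4, 3.25, 0.769 and 2.95 CPM, so its excess lay in oviduct 1. Myeloid genes summed to 6.66 to 12.2 CPM. Erythroid genes varied from 33.8 to 2211 CPM, with the lowest and the highest value both in the oviduct. Of 5 tested pericyte genes 4 were called higher in the oviduct (test below), and of 6 tested smooth muscle and 6 tested stroma genes 3 each, against 2.75% of all tested genes called in that direction. The part of these traces in the organ differences below was not tested, and counts are given without the cells that had 3 such genes. Free RNA was bounded for each gene by assuming that every count of the stroma genes in endothelial cells was foreign, and that free RNA has the composition of uncalled barcodes with at most 100 UMIs. The ambient bound below is the percentage of a gene's endothelial counts that such RNA would supply. It depends on the stroma genes. Smooth muscle genes in their place would give more free RNA in both oviduct libraries and less in both uterine ones. Erythroid genes would give more in oviduct 2 and uterus 2 and less in oviduct 1 and uterus 1. The bound is thus not an upper limit, and can be too low for genes higher in the oviduct. Calls after subtraction at these other rates were not tested.

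Endothelial cells were a smaller share of the oviduct than of the uterine cells. They made up 2.23% (95% Clopper-Pearson interval 1.89 to 2.60) and 2.24% (1.88 to 2.66) of the kept barcodes of oviduct, against 3.84% (3.27 to 4.48) and 3.66% (3.13 to 4.25) for uterus. The means were 2.23% ± 0.0125 and 3.75% ± 0.130 (SD, n = 2 libraries each), with no overlap between organs. The difference of -1.52 percentage points had an exact permutation p of 0.33 (2-sided), the smallest that 2 against 2 libraries can give. The intervals cover counting error only. The filters removed more barcodes in the uterus: over all called barcodes the shares were 1.97% and 1.93% against 2.73% and 2.61%.

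**Figure D1:**
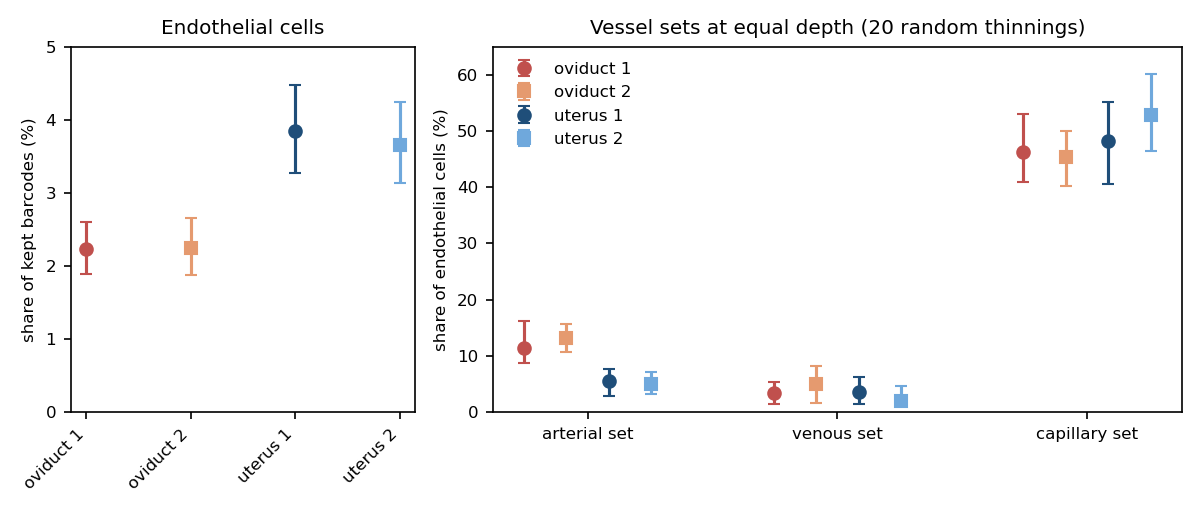
Left, endothelial cells as a percentage of kept barcodes in each library, with 95% Clopper-Pearson intervals. Right, percentage of endothelial cells in the arterial, venous and capillary sets after thinning every cell to 3000 UMIs; points are medians and bars the range over 20 random thinnings. The uterine libraries lie above the oviduct ones at left (3.66% and 3.84% against 2.23% and 2.24%), and below them in the arterial set at right.

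Cells were sorted along the vessel by 3 lists of 5 core genes each: Gja4, Gja5, Bmx, Sema3g and Hey1 for arteries, Nr2f2, Ephb4, Selp, Ackr1 and Lrg1 for veins, and Rgcc, Car4, Gpihbp1, Cd36 and Cd300lg for capillaries. A cell joined a set with at least 2 core genes of 1 list and fewer of both others. At full depth this gave 75 arterial-set, 30 venous-set and 295 capillary-set cells, and 206 cells in none. These are ranges cut from sparse counts, not separate cell types. With every cell thinned to 3000 UMIs, which left 149, 122, 143 and 153 cells, the arterial set held 8.72%, 13.9%, 5.59% and 4.58% of the endothelial cells. At full depth it held 17.5%, 16.0%, 9.62% and 7.27%. Both oviduct libraries were above both uterine ones at either depth, and in 20 of 20 random thinnings, with a difference of the means of 5.06 to 10.0 percentage points. The exact permutation p of 0.33 (2-sided) is again the smallest possible. Without oviduct replicate 2 the difference was 3.64 percentage points, against 6.24 with all libraries. Sema3g, 1 of the core genes that define the set, itself differed between the organs (below). The log2 fold changes of all 5 core genes were toward the oviduct, each at an unadjusted edgeR p under 0.05. Of all 11289 tested genes 1452 had such a p in either direction. The share is thus not independent of its core genes.

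The capillary set held 45.6%, 47.5%, 52.4% and 54.2% of the thinned cells, and the venous set 6.04%, 4.92%, 2.80% and 3.92%. These values are of 1 random thinning. Over 20 thinnings the venous medians were 3.36%, 4.92%, 3.50% and 1.96%, and oviduct 1 ranged from 1.34% to 5.37%. Both oviduct libraries were above both uterine ones in the venous set in 5 of the 20. Over the 20 thinnings the oviduct-minus-uterus difference of the means ranged from -12.4 to 1.53 percentage points for the capillary set and from -1.40 to 4.07 for the venous set. With at least 3 core genes the capillary difference turned to 4.48, toward the oviduct. Cd36, a capillary core gene, also differed between the organs (below). The venous set rested on Nr2f2 and Ephb4. Nr2f2 was detected in 64.7% to 68.8% of all endothelial cells, and Ephb4, the venous receptor for ephrin B2, in 62.4% to 69.5%. Nr2f2 is no marker of endothelium against stroma: among cells thinned to 3000 UMIs it was detected in 29.4% to 32.9% of endothelial and 58.4% to 70.7% of stroma-set cells. Its ambient bound was 8.45%, and the part of stromal RNA in the venous set was not tested. Selp (P-selectin) and Ackr1, genes of mature venules, were close to absent, with at most 1.48 CPM in any library. The capillary genes Gpihbp1, which anchors lipoprotein lipase, and Rgcc were detected in 78.6% to 92.7% and 77.1% to 92.7% of the cells.

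Most further arterial genes, which had no part in the sorting, were higher in arterial-set cells. Of 27 further arterial genes with at least 20 UMIs, 24 were higher in the arterial than in the capillary set in all 4 libraries and 1 was lower in all, with a median log2 ratio of 2.47. This is a description, since the sets were cut from the same cells. Cxcl12, the chemokine ligand of CXCR4, had 710, 363, 477 and 511 CPM in arterial-set cells and 11.9, 16.4, 3.75 and 8.92 in capillary-set cells. Unc5b, a netrin receptor, had 237, 333, 273 and 434 against 40.5, 30.7, 32.7 and 24.7 CPM, and Efnb2, the arterial ephrin, 336, 566, 312 and 421 against 67.7, 117, 88.5 and 66.9. In each of these the lowest arterial-set value exceeded the highest capillary-set value. Aplnr, the apelin receptor, ran the other way, with 35.5, 11.8, 23.6 and 4.17 against 295, 329, 294 and 306 CPM, as did Nrp2, a VEGF co-receptor of veins and lymphatics (18.2, 11.8, 15.7 and 10.4 against 131, 158, 76.2 and 64.9). Kdr, the main VEGF receptor, had 401, 543, 559 and 490 against 550, 632, 592 and 516 CPM. The further capillary genes as a list did not share that direction: of 23, 7 were lower and 3 higher in the arterial than in the capillary set in all 4 libraries, with a median log2 ratio of 0.09 (-0.03 to 0.10 without 1 library). Among cells thinned to 3000 UMIs, Nr2f2 was detected in 8.82% of 102 cells with Gja4 and in 35.7% of the cells without it. Ephb4, the other venous core gene, was detected in 23.5% and 17.2% of them.

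**Figure D2:**
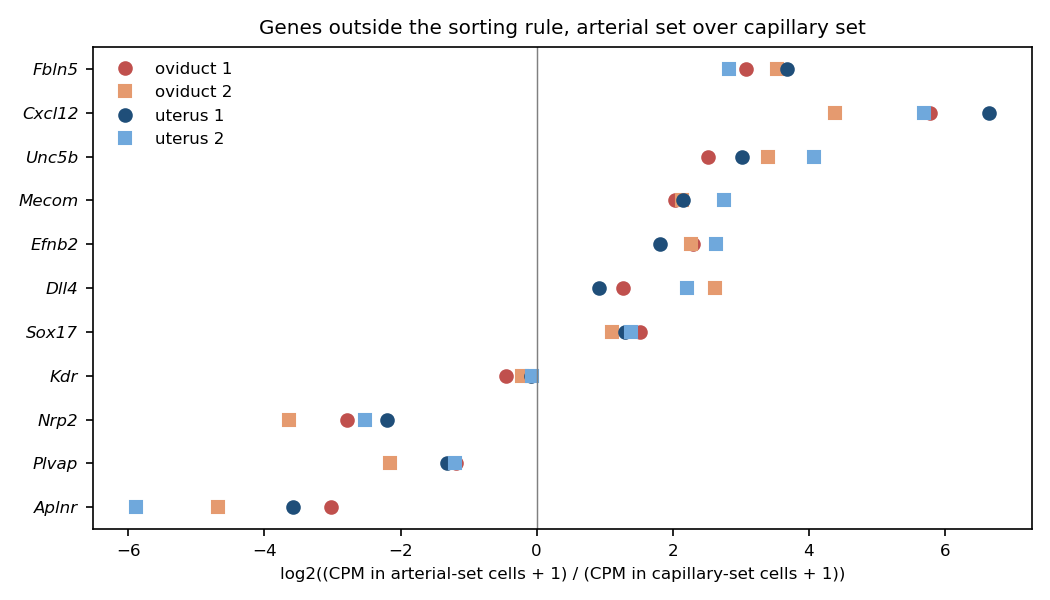
Log2 ratio of CPM in arterial-set cells over capillary-set cells, with 1 CPM added to both, for 11 genes outside the core lists; each point is 1 library. Fbln5, Cxcl12, Unc5b, Mecom, Efnb2, Dll4 and Sox17 lie above 0 and Kdr, Nrp2, Plvap and Aplnr below 0 in all 4 libraries.

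Venous-set cells were compared with capillary-set cells in the same way. Of 18 further venous genes, 3 were higher in the venous than in the capillary set in all 4 libraries and 0 were lower in all, with a median log2 ratio of 0.29 (0.18 without oviduct 1). Nrp2 was higher in the venous set, with 216, 349, 322 and 109 CPM against 131, 158, 76.2 and 64.9 in capillary-set cells. The venous sets held 5 to 10 cells per library. For 8 lymphatic genes with at least 20 UMIs the median log2 ratio of venous over capillary set was 2.47, but 0.28 without uterus 1, and 1 of them was higher in the venous set in all 4 libraries. That gene, Prox1, which specifies lymphatic endothelium, had 10.8, 34.0, 65.8 and 2.14 CPM against 6.98, 9.73, 2.15 and 1.37. The cell with the 141 Ccl21a UMIs was in the venous set of uterus 1. The part of lymphatic cells in the venous-set values was not tested.

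The organ comparison summed the counts of all endothelial cells per library and tested 11289 genes with edgeR's quasi-likelihood test. At a Benjamini-Hochberg adjusted p under 0.05, 390 genes were called, 3.45% of those tested: oviduct was higher for 311 (2.75%) and uterus for 79 (0.7%). Values are relative to each library's endothelial total. For 41.9% of the tested genes the organs' libraries showed no overlap. The median log2 fold change of all tested genes was -0.0044. Without the cells that had 3 genes of another class the count was 247 of 10467 genes (2.36%), and DESeq2 called 143 genes. With every cell thinned to 3000 UMIs, 43 of 5960 genes were called. The 7 choosing markers had log2 fold changes between -0.08 (Egfl7) and 0.45 (Cldn5), given as a description only.

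The genes that rose most in the oviduct, among those with a mean of at least 20 CPM and an ambient bound of at most 25%, were Fabp4, Fbln2, Fabp5, Cdkn1a, Csrnp1, Vwf, Atf3, Irf1, Ebf3 and Tiparp. They mix lipid-binding proteins, matrix and secreted proteins, and genes induced by stress or cytokines. Irf1, an interferon-responsive transcription factor, had 170.1, 163, 50.0 and 68.3 CPM, a log2 change of 1.51 ± 0.16, edgeR adjusted p 1.7e-06. Here and below, the ± of a log2 change is an approximate SE, the size of the change divided by the square root of the test's F. It is not a fitted SE and can understate the error of genes with few UMIs. Cdkn1a, the cell cycle inhibitor p21, had 39.5, 32.2, 7.94 and 14.0 CPM, 1.70 ± 0.22, edgeR adjusted p 2.9e-05. Ebf3, a transcription factor of mesenchyme, had 28.9, 51.7, 8.97 and 18.4 CPM with an ambient bound of 0.527% (1.49 ± 0.26, edgeR adjusted p 0.00086). Ebf3 was not called by DESeq2. With cells thinned to 3000 UMIs Irf1, Ebf3 and Csrnp1 lost their calls.

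The genes that rose most in the uterus by the same rule, which also asks that the organs' libraries do not overlap, were Hoxd10, Hspa1b, Itga4, Hapln1, Fzd10, Lrrc49, Esm1, Tnfrsf11b, Ptgis and Apcdd1. Their log2 fold changes lay between -2.09 and -0.96. Hapln1, which links hyaluronan to proteoglycans, had 26.8, 26.6, 69.4 and 70.4 CPM, and its log2 fold change was -1.36 ± 0.15, edgeR adjusted p 4.1e-06, with an ambient bound of 0.427%. Itga4, the α4 integrin subunit, had 11.8, 14.8, 43.8 and 27.1 CPM (-1.38 ± 0.22, edgeR adjusted p 0.00027). The Wnt receptor Fzd10 had 15.1, 13.0, 39.5 and 26.3 CPM (-1.16 ± 0.20, edgeR adjusted p 0.00096), and the Wnt inhibitor Apcdd1 had 13.0, 13.9, 31.8 and 22.1 (-0.96 ± 0.21, edgeR adjusted p 0.0067). Apcdd1 was not called without uterus replicate 1, without the cells that had 3 genes of another class, in capillary-set cells alone or by DESeq2. Tnfrsf11b, the decoy receptor osteoprotegerin, had 21.6, 22.1, 51.5 and 40.7 CPM in endothelium (-1.04 ± 0.17), and Ptgis, prostacyclin synthase, 25.6, 26.9, 46.9 and 56.9 (-0.97 ± 0.16). With cells thinned to 3000 UMIs Itga4, Tnfrsf11b, Ptgis, Lrrc49, Hoxd10 and Esm1 lost their calls.

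**Figure D3:**
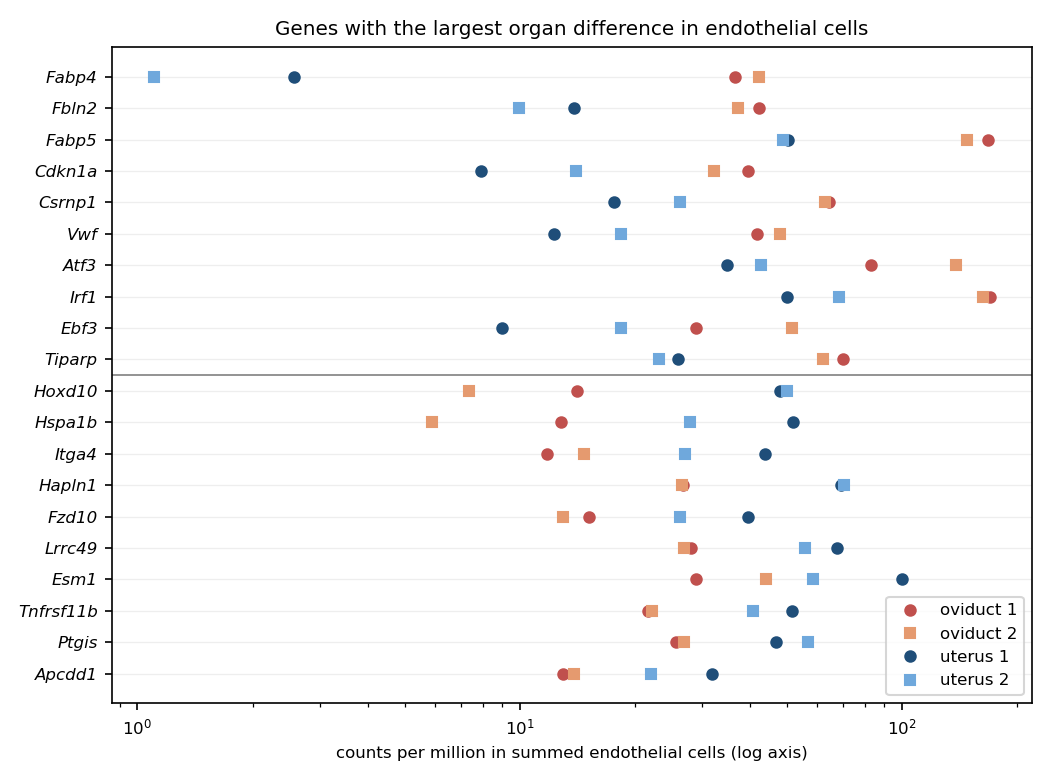
CPM in the summed endothelial cells of each library (log axis) for the 10 genes with the largest change toward the oviduct (above the line) and toward the uterus (below it). The genes were chosen to have no overlap between the organs; the log2 fold changes run from 4.51 (Fabp4) to -2.09 (Hoxd10).

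A minority of the lipid-handling genes was called, all higher in the oviduct. Of 24 listed, 21 were tested and 7 rose in the oviduct, 0 in the uterus, where 3.45% of all tested genes were called; the list's median log2 fold change was 0.19, with 14 values above and 7 below 0. All 7 were also called without the cells that had 3 genes of another class, and without arterial-set cells. DESeq2 kept 6 of the 7, and with cells thinned to 3000 UMIs 3 of the 6 that could be tested were kept. After subtraction of the ambient bound 5 of the 7 were kept. Fabp4, the fatty acid binding protein of capillary endothelium and fat cells, had 36.6, 42.2, 2.56 and 1.11 CPM, and its log2 fold change was 4.51 ± 0.28, edgeR adjusted p 5e-10. Few cells had it. In the oviduct 33 of 154 and 12 of 131 cells had a UMI, and in oviduct 2 the 5 richest cells held 90.9% of its UMIs; in the uterus 6 and 3 cells had one. Its UMIs in oviduct 1 were spread over arterial-set (47), venous-set (18), capillary-set (69) and unassigned cells (52). Cd36, the scavenger receptor that takes up long-chain fatty acids, had 19.5, 25.7, 0.769 and 0.368 CPM (5.33 ± 0.39, edgeR adjusted p 8.4e-09), with UMIs in 23, 26, 3 and 1 cells. Arterial-set cells held 0 of its UMIs, which the sorting rule itself favours, since Cd36 is a capillary core gene. Fabp5, another fatty acid binding protein, had a UMI in 55.2%, 43.5%, 37.2% and 43.0% of the cells, and its level was 168, 148, 50.2 and 48.8 CPM (1.71 ± 0.14, edgeR adjusted p 6.9e-08). Among cells thinned to 3000 UMIs, Fabp5 was detected in 23.5%, 24.6%, 9.79% and 17.6% of the endothelial cells and in 26.5%, 22.3%, 17.5% and 15.8% of the stroma-set cells; its ambient bound was 6.22%. The caveolar coat genes Cavin1 and Cavin2 rose by 0.69 and 0.65 on the log2 scale. Cavin2 lost its call without oviduct replicate 2, in capillary-set cells alone and with a replicate block (adjusted p 0.054). The block pairs libraries of equal replicate number, which were taken to be 1 pool of neonates. Apoe, also called, had an ambient bound of 59.1%. Gpihbp1 had 606, 574, 562 and 592 CPM and Cav1, the main caveolar protein, 841, 908, 815 and 843, with adjusted p of 0.94 and 0.87.

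Several arterial genes were higher in the oviduct. Of the 5 arterial core genes all were tested and 1, Sema3g, was called, and of 28 further arterial genes 26 were tested and 11 rose in the oviduct, 0 in the uterus, with a median log2 fold change of 0.50, where 3.45% of all tested genes were called. DESeq2 and thinning to 3000 UMIs each kept 6 of the 11. After subtraction of the ambient bound 10 of them could be tested and 7 were kept. Sema3g, a secreted semaphorin of arteries, had 28.9, 25.1, 12.6 and 12.0 CPM (1.18 ± 0.20, edgeR adjusted p 0.00057), and lost its call with cells thinned to 3000 UMIs. Gja4 had 197, 108, 99.9 and 102 CPM, so that oviduct 2 lay close to the uterine libraries (0.63 ± 0.19, edgeR adjusted p 0.066), and Gja5, Bmx and Hey1 had 0.64, 0.96 and 0.47 (adjusted p 0.18, 0.16 and 0.27). Without the cells that had 3 genes of another class all 5 core genes were called. Without arterial-set cells, where 3.47% of all tested genes were called, 5 of the 11 further arterial calls were kept: Edn1, Bmp4, Mgp, Eln and Ltbp4. Bmp4 had 5.76, 14.7, 0 and 6.25 CPM in arterial-set cells, below the 35.6, 31.2, 23.6 and 19.6 of capillary-set cells. It stands in the venous and BMP lists too, and Mgp, Eln and Ltbp4 in the matrix list, so the list counts share genes. Mgp, Eln and Ltbp4 had ambient bounds of 97.0%, 36.6% and 27.7%. Dll4, the arterial and tip cell Notch ligand, had 80.3, 90.7, 56.6 and 63.4 CPM (0.53 ± 0.15, edgeR adjusted p 0.045) and lost its call under several alternatives, among them DESeq2, the omission of either oviduct library or of uterus replicate 1, the omission of arterial-set cells, and a replicate block (adjusted p 0.088). Edn1, the vasoconstrictor endothelin 1, had 48.8, 46.1, 21.5 and 20.1 CPM (1.22 ± 0.16, edgeR adjusted p 3.1e-05) and was called without arterial-set cells, though not in capillary-set cells alone.

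Several matrix genes rose in the oviduct as well: of 31 listed, 30 were tested and 10 called, all toward the oviduct, against 3.45% called of all tested genes, with a median log2 fold change of 0.21. All 10 were also called without the cells that had 3 genes of another class. DESeq2 kept 8 of the 10, thinning to 3000 UMIs 6, and the omission of arterial-set cells 7. Fbln2, an elastic fibre protein, had 42.3, 37.2, 13.8 and 9.95 CPM (1.80 ± 0.19, edgeR adjusted p 2.3e-06). It lay mostly in the arterial set, with 191, 304, 115 and 85.5 CPM there against 2.10, 7.17, 2.15 and 2.40 in capillary-set cells. It lost its call without arterial-set cells. These held 387 of its UMIs, against 3, 28 and 31 in venous-set, capillary-set and unassigned cells. The counts left are too few to show whether the difference is confined to arterial-set cells. Fbln5, a related elastic fibre gene, had 48.6, 35.4, 22.0 and 11.2 CPM (1.43 ± 0.22). It was not called without arterial-set cells but was called in capillary-set cells alone. Vwf, the clotting factor stored by endothelium, had 41.7, 47.8, 12.3 and 18.4 CPM (1.53 ± 0.19, edgeR adjusted p 1.9e-05). It too was high in arterial-set cells, at 148, 336, 68.2 and 154 against 9.08, 14.8, 3.22 and 4.12 CPM in capillary-set cells, but remained called both without arterial-set cells and in capillary-set cells alone. Of the 10, Mgp, Eln and Ltbp4 had ambient bounds above 25%. Igfbp3, a binder of insulin-like growth factors, had 450.1, 356, 139.9 and 205 CPM (1.24 ± 0.17, edgeR adjusted p 6.8e-05). The basement membrane collagen genes Col15a1 and Col18a1 rose by 0.89 and 0.69. Col4a1 and Col4a2, the main basement membrane collagens, had log2 fold changes of 0.29 and 0.22 (adjusted p 0.38 and 0.56), and Sparc had -0.02 (adjusted p 0.98).

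Some capillary and venous genes were called, to be read against 3.45% of all tested genes. Of the capillary core genes only Cd36 was called of 5 tested, with a list median of 0.06. Of 25 further capillary genes 23 were tested, 2 rose in the oviduct (Fabp4 and Fabp5) and 2 in the uterus. The latter were Btnl9, a butyrophilin-like gene, with 5.90, 5.91, 18.4 and 13.8 CPM (-1.40 ± 0.26, edgeR adjusted p 0.0016), and Nostrin, which traffics nitric oxide synthase, with 13.4, 17.7, 24.9 and 29.8 (-0.82 ± 0.20, edgeR adjusted p 0.018). DESeq2 called neither, and in capillary-set cells alone both lost their calls. Nostrin also lost its call without oviduct replicate 1, without uterus replicate 2 or without the cells that had 3 genes of another class. Of the 3 venous core genes tested Lrg1 was called (7.08, 10.3, 2.82 and 3.13 CPM, 1.52 ± 0.36, edgeR adjusted p 0.016), though not by DESeq2, without oviduct replicate 2, without cells with 2 lymphatic genes or without the cells that had 3 genes of another class. Nr2f2 had 157, 195, 183 and 139 CPM, the organs overlapping. Of 19 further venous genes 17 were tested and 4 rose in the oviduct: Vwf, Bmp4, Icam1 and Nrp2. Icam1, the leukocyte adhesion receptor, had 183, 322, 99.9 and 151 CPM (1.01 ± 0.20, edgeR adjusted p 0.0034) and was not called by DESeq2, without oviduct replicate 2 or without the cells that had 3 genes of another class.

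The counts of the next 5 lists, 2 to 4 called genes each, are to be read against 3.45% of all tested genes. Among 26 tip cell and angiogenic genes, 25 were tested, 3 rose in the oviduct (Igfbp3, Nrp2 and Dll4) and 1 in the uterus. That gene was Esm1, the tip cell proteoglycan endocan, with 28.9, 44.0, 100.2 and 58.4 CPM (-1.10 ± 0.20, edgeR adjusted p 0.0015), though it was not called by DESeq2, in capillary-set cells alone or with cells thinned to 3000 UMIs. Of 19 tested VEGF and TIE receptor genes 2 rose in the oviduct, Nrp2 by 0.73 and Ptprb, a phosphatase acting on VE-cadherin and Tie2, by 0.51. Nrp2 lost its call without oviduct replicate 2, without cells with 2 lymphatic genes and with cells thinned to 3000 UMIs. Kdr had 513, 634, 585 and 524 CPM (0.08, adjusted p 0.92). Ptprb lost its call under 13 alternatives, among them the omission of any 1 library and a replicate block (adjusted p 0.19). Of 18 tested Notch pathway genes 3 rose in the oviduct: Dll4, the target Hes1 (0.63 ± 0.14) and Notch3. Hes1 lost its call without oviduct replicate 2, after subtraction of the ambient bound and with cells thinned to 3000 UMIs, and Notch3 without oviduct replicate 1. Notch3 is a pericyte receptor and stands in the pericyte list too. It had 15.3, 4.73, 1.79 and 0.737 CPM, and too few counts to be tested once cells with 3 genes of another class were left out. Of 18 tested BMP and TGF-β genes 2 rose in the oviduct, the ligand Bmp4 (26.2, 39.9, 15.6 and 15.7 CPM, 1.07 ± 0.20) and the inhibitory Smad7 (0.88 ± 0.16). Both lost their calls with cells thinned to 3000 UMIs, and Bmp4 also without cells with 2 lymphatic genes and in capillary-set cells alone. Of 21 tested junction and adhesion genes 3 rose there: Icam1, Jam2 (0.68) and Cd47 (0.51), none of which DESeq2 called. All 3 lost their calls without oviduct replicate 2. Jam2 and Cd47 lost them also without uterus replicate 1, without Scrublet doublets and after subtraction of the ambient bound. Jam2 lost it without the cells that had 3 genes of another class, and Cd47 under 10 alternatives in all, among them a replicate block (adjusted p 0.14).

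**Figure D4:**
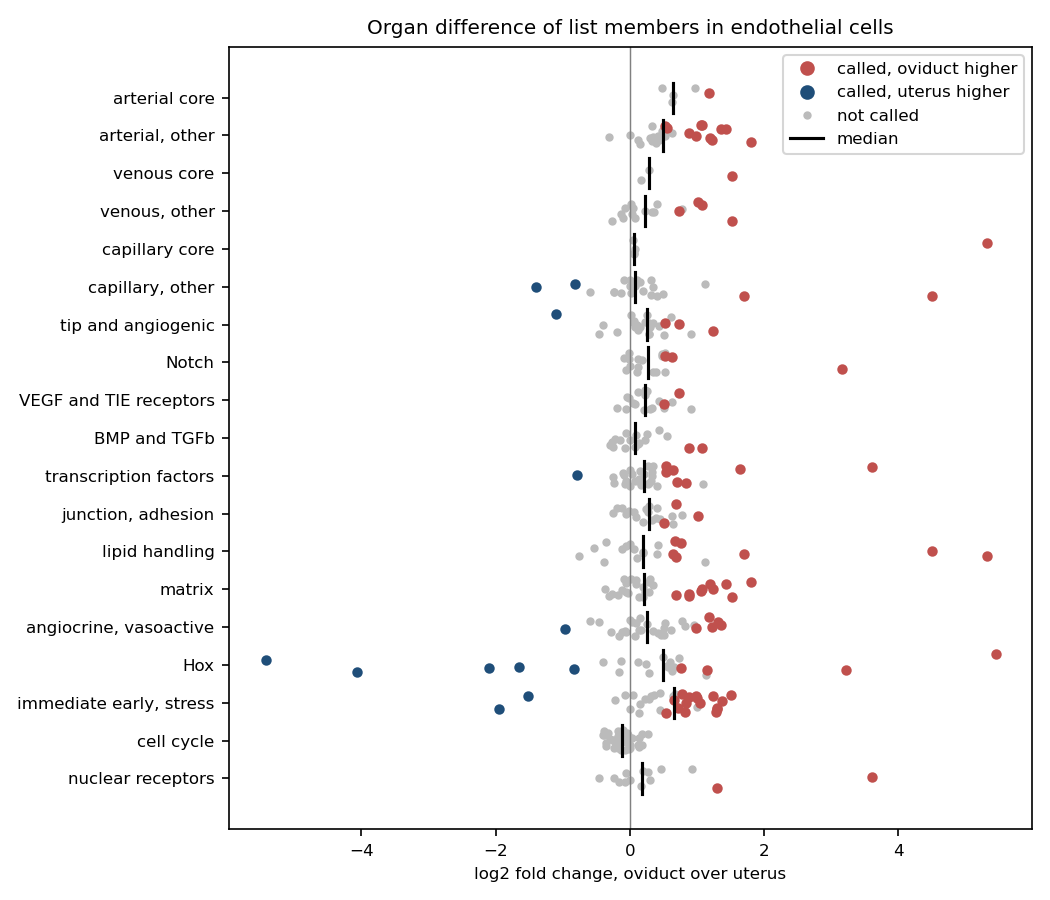
Log2 fold change (oviduct over uterus) of every tested member of 19 gene lists in endothelial cells; coloured points are called at an edgeR adjusted p under 0.05, grey points are not, and black bars are list medians. The immediate early and stress list has the highest median (0.66) and 18 of 33 members called; the cell cycle list has 0 of 40 called.

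Of 36 endothelial transcription factor genes 33 were tested, 7 rose in the oviduct and 1, Hlx, rose in the uterus, against 3.45% called of all tested genes. Hlx, a homeobox gene, had 19.9, 23.0, 35.6 and 39.2 CPM (-0.79 ± 0.17, edgeR adjusted p 0.0066; not called by DESeq2, without oviduct replicate 1, in capillary-set cells alone or with cells thinned to 3000 UMIs). Among the 7 were Sox7 (0.70), Meox1 (0.64), Bcl6b (0.53) and Klf4 (0.83 ± 0.14), the last a flow-responsive factor. Klf4 lost its call with cells thinned to 3000 UMIs and Bcl6b with a replicate block (adjusted p 0.090). Of the 8 calls DESeq2 kept 3, and with cells thinned to 3000 UMIs 1 of the 6 that could be tested was kept. Foxc1 had 9.84, 12.4, 3.84 and 3.32 CPM (1.65 ± 0.32, edgeR adjusted p 0.0023), and was not called by DESeq2 or without the cells that had 3 genes of another class. Nr2f1 had 16.9, 11.2, 1.02 and 1.29 CPM with an ambient bound of 27.9%, and could not be tested without the cells that had 3 genes of another class. Ets1 and Lmo2, general endothelial factors, had -0.26 and -0.10 (adjusted p 0.47 and 0.88).

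Hox genes, which carry positional identity along the body and the reproductive duct, differed in both directions. Of 38 in the files 23 were tested, 4 rose in the oviduct (Hoxa5, Hoxb4, Hoxc6 and Hoxc8) and 5 in the uterus (Hoxa10, Hoxa11, Hoxd9, Hoxd10 and Hoxd11), against 3.45% called of all tested genes. For 5 of these 9 the ambient bound was above 25%: 78.0% for Hoxc6, 74.3% for Hoxa11, 64.2% for Hoxa10, 62.5% for Hoxd11 and 51.9% for Hoxc8. The other 4 had bounds of at most 12.7%. After subtraction of the ambient bound 6 of the 9 could be tested and 4 were called. With cells thinned to 3000 UMIs 3 of the 9 could be tested and 0 were called, Hoxd10 and Hoxd9 among those that lost their calls. Hoxd10 had 14.2, 7.38, 47.9 and 50.1 CPM, and its log2 fold change was -2.09 ± 0.21, edgeR adjusted p 1e-06. Hoxd9 had 73.2, 75.0, 139.9 and 129 CPM (-0.83 ± 0.14, edgeR adjusted p 0.00044), with a bound of 5.80%. Hoxb4 had 50.0, 59.1, 33.6 and 31.9 CPM (0.76 ± 0.15, edgeR adjusted p 0.0036), with a bound of 0.884%. Hoxa5 had 18.7, 18.3, 4.36 and 11.8 CPM (1.14 ± 0.29, edgeR adjusted p 0.024) and was not called by DESeq2, without uterus replicate 1, after subtraction of the ambient bound, without Scrublet doublets (barcodes that the doublet caller marked), without cells with 2 lymphatic genes or without the cells that had 3 genes of another class. Hoxd8 and Hoxb9 had levels of 77.4 to 88.2 and 70.2 to 84.8 CPM, with adjusted p of 0.81 and 0.84. Without the cells that had 3 genes of another class, 5 of the 9 could be tested and 3 were called, all toward the uterus: Hoxd10, Hoxd9 and Hoxa10.

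The Hox difference of endothelium was of the same direction as in the cells around it, and for Hoxd10 and Hoxd9 smaller. A stroma set (14625 cells with at least 4 of 8 stroma genes, which includes smooth muscle) and a pericyte set (999 cells with at least 4 of 8 pericyte genes) were summed per library in the same way. All 9 genes were called in the same direction in both sets. For 5 of the 9 the ambient bound was above 25%, and the part of free RNA in their shared direction was not tested. In the stroma set 40.3% of 15922 tested genes were called and in the pericyte set 11.8% of 11840. Hoxd10 differed by -4.11 in the stroma set and -3.28 in the pericyte set against -2.09 in endothelium. The organ effect differed between endothelium and stroma by 2.02 and between endothelium and pericytes by 1.23, the interaction of organ and class in 1 edgeR model. For Hoxd9 the effects were -2.66, -1.73 and -0.83, with interactions of 1.83 and 0.92.

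Immediate early and stress genes, which cells switch on within minutes of a stimulus and which tissue dissociation also induces, formed the list with the most calls. Of 33 tested, 16 rose in the oviduct and 2 in the uterus, against 3.45% called of all tested genes, and the list's median log2 fold change was 0.66. Fos had 541, 765, 266 and 298 CPM (1.23 ± 0.16, edgeR adjusted p 3e-05). Atf3, a stress-induced repressor, had 83.2, 138, 34.8 and 42.7 (1.51 ± 0.19, edgeR adjusted p 2e-05). Socs3, which damps cytokine signalling, had 158, 209, 78.7 and 65.8 (1.37 ± 0.15, edgeR adjusted p 3.2e-06), and Nr4a1, an orphan nuclear receptor, 104.8, 109.6, 35.4 and 52.1 (1.30 ± 0.17). For each of the 4, both oviduct libraries were above both uterine ones. The 2 genes that rose in the uterus were the inducible Hsp70 genes, with 27.1, 10.3, 70.5 and 46.4 CPM for Hspa1a and 12.8, 5.91, 51.8 and 27.8 for Hspa1b (-1.51 ± 0.24 and -1.95 ± 0.27). They are near-identical copies between which reads cannot always be divided, and neither was called by DESeq2. Hspa8, the constitutive relative, had 1978, 1870.3, 1673 and 1847 CPM (0.15, adjusted p 0.75). All 18 calls were kept without arterial-set cells and in capillary-set cells alone, where 2.8% of all tested genes were called. Without the cells that had 3 genes of another class 11 of the 18 were kept, and after subtraction of the ambient bound 15. DESeq2 kept 9 of the 18, and with cells thinned to 3000 UMIs 7 of the 17 that could be tested were kept.

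Most of the 18 genes called in endothelium were also called in the surrounding cells: 16 in the stroma set and 15 in the pericyte set, all in the direction seen in endothelium, where 40.3% and 11.8% of all tested genes were called. The whole list gave 29 calls in the stroma set, 22 toward the oviduct and 7 toward the uterus, and 17 in the pericyte set, 15 and 2 by direction. For 6 of the 18 the organ effect differed between endothelium and stroma, and for 2 between endothelium and pericytes, where 10.2% and 2.67% of all tested genes differed. Atf3 rose by 2.69 in the stroma set and 1.51 in endothelium, an interaction of -1.21, and Nr4a1 by 2.45 and 1.30, an interaction of -1.12. The whole list summed to 9580, 11069, 6685 and 7843 CPM in endothelium and to 14112, 17832, 7384 and 9216 CPM in all other kept barcodes. Handling of the organs at dissociation and the organ itself cannot be told apart here.

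**Figure D5:**
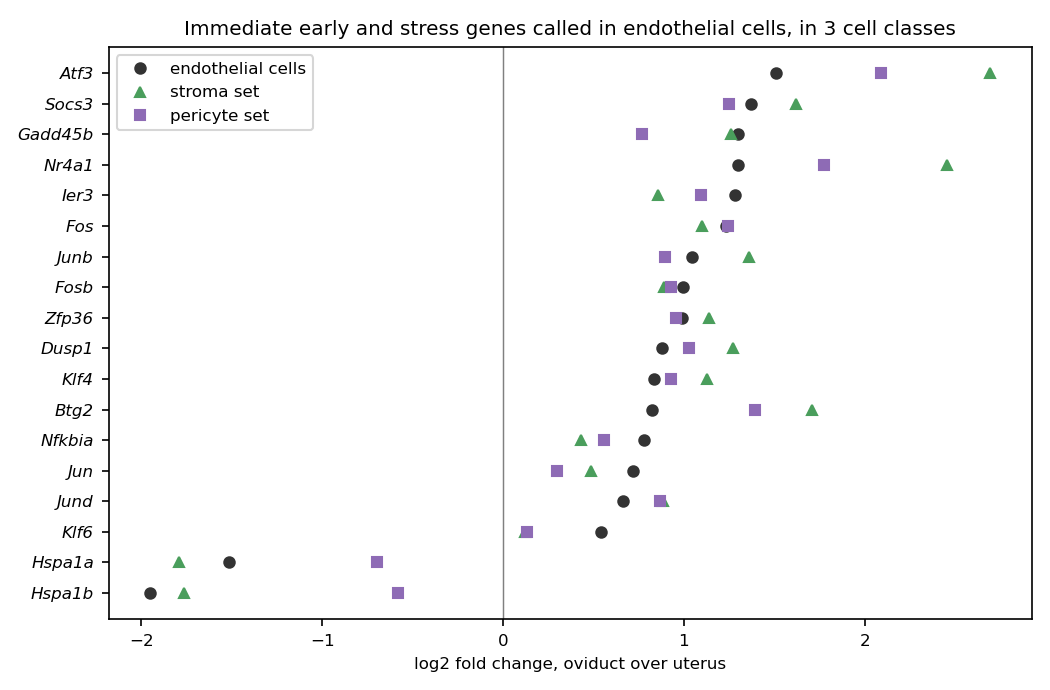
Log2 fold change (oviduct over uterus) of the 18 immediate early and stress genes called in endothelial cells, shown in endothelial cells, the stroma set and the pericyte set. The 16 genes above 0 in endothelium are above 0 in both other classes, and Hspa1a and Hspa1b are below 0 in all 3.

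The 250 bases before the start are shown for 2 of the 16 list members that rose in the oviduct, Fos and Nr4a1. They are also shown for Nr4a2, a relative of Nr4a1 outside the list. The bases are from RefSeq on GRCm38.p6 and are read 5′ to 3′ on the strand of the gene. TGACG or its reverse complement CGTCA is in capitals. TGACG is the core of the site that cAMP-responsive factors of the CREB and ATF family recognise. The window of Fos is chr12:85473640-85473889 on the plus strand and holds 2 matches, that of Nr4a1 is chr15:101266596-101266845 on the plus strand with 4, and that of Nr4a2 is chr2:57124004-57124253 on the minus strand with 4. Nr4a2 had 62.6, 81.5, 25.4 and 27.1 CPM (1.47 ± 0.16).
Fos: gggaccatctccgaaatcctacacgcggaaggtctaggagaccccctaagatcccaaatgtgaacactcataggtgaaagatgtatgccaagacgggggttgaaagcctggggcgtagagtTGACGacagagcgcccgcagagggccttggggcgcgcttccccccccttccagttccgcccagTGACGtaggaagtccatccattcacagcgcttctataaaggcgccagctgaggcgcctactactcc
Nr4a1: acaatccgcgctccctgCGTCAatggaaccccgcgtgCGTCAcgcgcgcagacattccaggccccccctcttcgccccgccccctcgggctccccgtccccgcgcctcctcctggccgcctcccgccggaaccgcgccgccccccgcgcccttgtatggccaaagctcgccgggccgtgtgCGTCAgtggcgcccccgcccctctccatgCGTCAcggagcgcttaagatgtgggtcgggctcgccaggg
Nr4a2: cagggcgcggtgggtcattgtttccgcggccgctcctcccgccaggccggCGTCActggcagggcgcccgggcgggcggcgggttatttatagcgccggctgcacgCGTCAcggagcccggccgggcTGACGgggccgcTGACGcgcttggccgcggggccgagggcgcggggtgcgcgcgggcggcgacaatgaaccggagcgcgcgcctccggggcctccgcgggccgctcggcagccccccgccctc
At least 1 match was present in 8 of the 16 list members that rose in the oviduct, which is 50% of them, in 13 of the 26 members of the whole list that have a window, also 50%, and in 17.8% of all 32851 promoter windows. All 3 windows shown hold matches, while the other 8 of the 16 hold none. These 16 genes were listed for being inducible, so this describes the letters in the windows and not a site in use. The windows were not matched for base composition.

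Cell cycle genes were not called between the organs with all endothelial cells. Of 40 tested, edgeR and DESeq2 each called 0, with 5 (all higher in the uterus) at an unadjusted p under 0.05 in edgeR, and a median log2 fold change of -0.11. Of all tested genes edgeR called 3.45%, and 1452 of 11289 had an unadjusted p under 0.05 in either direction. In capillary-set cells alone 2 of the 40 were called, both higher in the uterus, where 2.8% of all tested genes were called. The median there was -0.36. Without the cells that had 3 genes of another class 0 were called, where 2.36% of all tested genes were called. Of the 40, 15 had an unadjusted p under 0.05 there, all higher in the uterus, and the median was -0.29. The share of all genes at that unadjusted p without those cells is not given here. Among cells thinned to 3000 UMIs, 24.2%, 23.0%, 28.7% and 28.1% had at least 3 of 8 cycling genes. At full depth the values were 42.9%, 39.7%, 44.2% and 47.9%. Mki67, the proliferation marker, had 216, 189.9, 264 and 176 CPM, and Top2a 295, 246, 321 and 251, both overlapping between the organs.

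Of 40 angiocrine and vasoactive genes 31 were tested, 5 rose in the oviduct (Edn1, Sema3g, Cxcl12, Dkk2 and Slit2) and Ptgis in the uterus, against 3.45% called of all tested genes. Dkk2, a Wnt modulator, had 24.0, 25.4, 10.8 and 9.03 CPM (1.35 ± 0.21, edgeR adjusted p 0.00024), with 103, 201, 81.3 and 77.1 in arterial-set cells. Dkk2 lost its call without those cells and with cells thinned to 3000 UMIs. Arterial-set cells held 243 of its UMIs, against 2, 24 and 30 in venous-set, capillary-set and unassigned cells, so few counts were left without them. Cxcl12 had 159, 65.6, 61.2 and 56.2 CPM (0.99 ± 0.23, edgeR adjusted p 0.015), oviduct 1 standing above the other 3 libraries. It lost its call without arterial-set cells, with DESeq2, after subtraction of the ambient bound and with cells thinned to 3000 UMIs. Of the list's 6 calls DESeq2 kept 4, subtraction of the ambient bound 4, and thinning 1 of the 5 that could be tested. Slit2 had an ambient bound of 49.5% and was not called by DESeq2, after subtraction of that bound, without Scrublet doublets or without the cells that had 3 genes of another class. Igf1 had 304, 317, 370.5 and 315 CPM, overlapping. Of 14 tested nuclear receptor genes, Nr4a1 and Nr2f1 rose in the oviduct, to be read against the same share. The progesterone receptor gene Pgr had 16.5, 19.5, 19.7 and 16.8 CPM (adjusted p 1). The estrogen receptor gene Esr1 had 17.9, 19.2, 20.8 and 7.92 CPM (adjusted p 0.53), with an ambient bound of 55.9%.

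Whether the organ difference was the same in endothelium and in neighbouring cells was tested by the interaction of organ and class. Against the stroma set 1579 of 15450 genes differed in their organ effect (10.2%), and against the pericyte set 335 of 12524 (2.67%). Fbln5 and Igfbp3 went in opposite directions: Fbln5 was higher in oviduct endothelium (1.43) but lower in the oviduct stroma and pericyte sets (-1.69 and -1.45), with interactions of 3.15 and 2.92, and Igfbp3 likewise (1.24 against -1.74 and -2.02, interactions 3.01 and 3.33). Tnfrsf11b was the reverse, higher in uterine endothelium (-1.04) and in oviduct stroma and pericytes (1.87 and 2.85), with interactions of -2.90 and -3.86. Edn1 was higher in oviduct endothelium and lower in oviduct stroma (1.22 against -1.31). Itga4, Hapln1, Fzd10 and Lrrc49 rose in uterine endothelium, while their differences in the stroma set were 0.09, 0.08, 0.00 and 0.20, and the interaction with the stroma set was called for all 4. With the pericyte set it was called for Itga4 (-1.08) and Lrrc49 (-1.41). Fabp4 was higher in the oviduct in all 3 classes (4.51, 3.65 and 4.30). Its stroma value is near the floor of detection. After thinning, Fabp4 was detected in 0.124%, 0.0798%, 0% and 0% of the stroma-set cells. The part of RNA from other cells in its stroma and pericyte values was not tested. The interaction of Fabp4 was called against neither the stroma nor the pericyte set (edgeR adjusted p 0.76 and 0.99). With so few stromal counts this does not show a difference shared by stroma. Fabp5 rose more in endothelium than in stroma or pericytes, 1.71 against 0.62 and 0.13, with interactions of 1.09 and 1.60.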

How the data were processed

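Cells of 2 oviduct and 2 uterine libraries were counted by the authors with Cell Ranger (6.0.1 in the header of the called-barcode matrices, 4 in that of the all-barcode matrices, per the file headers). The deposited values are UMI counts per gene and barcode, with 61117726 to 114419939 counts per library. Seurat 4.2.3 and mm10 come from the submitters' processing notes, and neither the annotation nor the handling of introns is given in the sources used here. CPM are counts of the summed endothelial cells of a library per 1000000 of their UMIs. Sums were tested with edgeR 4.0.16 (R 4.3.3; TMM scaling, filterByExpr, quasi-likelihood test, Benjamini-Hochberg adjustment over all tested genes), oviduct against uterus without a replicate term; DESeq2 1.42.0 was an alternative. The series text gives both organs as pooled from the same neonates, so equal replicate numbers were taken to mark 1 pool, which it does not spell out, and a fit with the replicate number as a block was run beside; same-numbered deviations from the organ means had a correlation of -0.0097 over 11289 genes. Differences from the stroma and pericyte sets came from 1 edgeR model with library, class and the interaction of organ and class. The scripts were tested on simulated data. Doublets were left in, and Scrublet (scanpy 1.11.5) served an alternative. Thinning drew 3000 UMIs per cell at random.

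The genes named are the 10 largest called changes per direction (mean of at least 20 CPM, no overlap between the organs, ambient bound of at most 25%; without the choosing genes, predicted genes, mitochondrial, ribosomal protein and haemoglobin genes), the 3 largest called changes per direction and the 3 most abundant genes of each list, and the marker and core genes. Other named genes were chosen after their values were seen. The members and lists were chosen with earlier results of these data known.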

Additional observations from a re-analysis of the deposited data

Results flagged for a closer look

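For each gene here the organ difference of endothelium differed from that of the surrounding cells by edgeR's interaction test, at an adjusted p under 0.05. Values are log2 differences of the oviduct-over-uterus effect, endothelium minus the other class. Against the stroma set 1579 genes differed. Among the named genes the value was positive for Cd36 (6.76), Fbln5 (3.15), Igfbp3 (3.01), Notch3 (2.97), Edn1 (2.56), Hoxd10 (2.02), Hoxd9 (1.83), Fbln2 (1.56), Fabp5 (1.09), Icam1 (0.87), Dkk2 (0.87), Sat1 (0.64) and Smad7 (0.44). It was negative for Btnl9 (-3.84), Tnfrsf11b (-2.90), Nostrin (-2.38), Nrp2 (-1.77), Itga4 (-1.45), Hapln1 (-1.43), Cdkn1a (-1.35), Lrrc49 (-1.31), Slit2 (-1.30), Ptprb (-1.26), Atf3 (-1.21), Fzd10 (-1.17), Nr4a1 (-1.12), Hoxa5 (-1.08), Ptgis (-0.79), Hes1 (-0.64) and Tiparp (-0.64). A negative value can stand for a rise in oviduct endothelium that is smaller than in stroma, as for Atf3, Cdkn1a and Nrp2, or for a gene that is higher in uterine endothelium.

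Against the pericyte set 335 genes differed. The value was positive for Igfbp3 (3.33), Notch3 (3.14), Fbln5 (2.92), Fabp5 (1.60), Hoxd10 (1.23), Sat1 (1.09), Hoxd9 (0.92), Icam1 (0.70) and Gadd45b (0.58). It was negative for Tnfrsf11b (-3.86), Nostrin (-3.34), Lrrc49 (-1.41), Hspa1b (-1.33), Ptgis (-1.20), Itga4 (-1.08) and Slit2 (-0.99). Notch3 stands in both lists of positive values, with 15.3, 4.73, 1.79 and 0.737 CPM in the endothelium of oviduct 1, oviduct 2, uterus 1 and uterus 2. It is a pericyte gene, and the part of pericyte RNA in its endothelial counts was not tested. Cd36 had 99, 87, 3 and 2 UMIs in endothelium, so its interaction with the stroma set rests on few uterine counts. Its stroma value is also near the floor of detection. After thinning, Cd36 was detected in 0.103%, 0.0266%, 0% and 0.105% of the stroma-set cells. The level of Btnl9 in endothelium was at least 10 times that in the other kept barcodes in every library. Its stroma value can thus rest on few counts too. The part of RNA from other cells in the stroma values of Cd36 and Btnl9 was not tested.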

How the results depend on the processing

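The 390 genes called between the organs in endothelium became 143 with DESeq2, 247 without cells with 3 genes of another class, 240 after subtraction of the ambient bound and 43 of 5960 tested with cells thinned to 3000 UMIs; of the 390, 143, 199, 221 and 38 were among them. Leaving out 1 library gave 345 to 442. The cause of these changes was not tested, except that thinning tested fewer genes. With a replicate block 387 genes were called, 342 of them among the 390. The block ended the calls of Cavin2, Cd47, Dll4, Jund, Ptprb, Sat1 and Bcl6b and changed no other call of a gene named in the text. The interaction with the stroma set gave 664 genes with DESeq2 and 1163 to 1348 without 1 library. That with the pericyte set gave 93 with DESeq2, 578 without a filter on low counts and 251 to 559 without 1 library, the highest without oviduct replicate 2.

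Of 58 called named genes 17 were called under every alternative that could test them. Of 107 named genes 0 changed sign where the main or the alternative fit made a call. Sign changes of genes called in neither fit were not counted. The endothelial share difference kept its direction, from -1.61 to -1.43 percentage points without 1 library. Without 1 library, in 1 random thinning, the arterial share difference ran from 3.64 to 8.85. The venous one ran from 1.56 to 2.68 and the capillary one from -7.71 to -5.81. Over 20 thinnings of all libraries the venous difference ran from -1.40 to 4.07 and the capillary one from -12.4 to 1.53. The capillary one reversed to 4.48 with at least 3 core genes. With at least 3 core genes the venous set held 0 cells and gave no comparison. The omission of arterial-set cells (380 genes), the restriction to capillary-set cells (275), the set shares without Cd36 or without cells with 3 genes of another class and the set medians without each library were chosen after seeing the data. With 2 libraries per organ no exact test can go below 0.33, and genes with few UMIs, such as Selp and Ackr1, were not testable at this depth.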
